A study of Mus musculus with 12 samples.

Results

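Genes that encode 10 neuropeptide precursors were followed in the brain of newborn mice: Npy, Sst, Hcrt, Oxt, Avp, Pmch, Agrp, Cartpt, Trh and Gal. They were chosen by name, from a list of hypothalamic and other neuropeptides, and every main probeset with 1 of these 10 symbols was taken, which gave 48 of 221417 probesets and 10 of 17550 genes. The samples were 12 whole brains of newborn females, 6 wildtype (KIS +/+) and 6 KIS-ko (KIS -/-), with 1 wildtype and 1 KIS-ko pup from each of 6 litters. KIS is a protein kinase encoded by Uhmk1, the knock-out is present in all cells of the animal, and the mice had been backcrossed to C57BL6/N. No treatment was given to either genotype. Each brain was frozen and ground, and RNA from part of the powder was hybridized to 1 Affymetrix Mouse Exon 1.0 ST array, on which short probes against an exon or part of it form a probeset.

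Neuropeptides are cut from larger precursor proteins, stored in vesicles and released to act on G protein-coupled receptors. Several of these genes are known for expression in small groups of hypothalamic neurons: Oxt and Avp in magnocellular neurons that project to the posterior pituitary, Hcrt and Pmch in the lateral hypothalamus, Agrp in the arcuate nucleus, and Trh in neurons that drive the thyroid axis. Npy and Sst are also made by many GABAergic interneurons of the cortex, striatum and hippocampus. Cartpt and Gal are made at several places in the forebrain and brainstem. In RNA of a whole brain a transcript of a small nucleus is diluted by that of all other cells, and fewer cells of a type cannot be told apart from less RNA per cell.

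The targeted gene was low in every KIS-ko brain. Values of a gene are given as log2(signal + 16), averaged over its probesets. The gene value of Uhmk1 was 10.87 ± 0.074 (SD, n = 6) in wildtype and 8.41 ± 0.23 in KIS-ko pups, a difference of -2.46 (adjusted p = 2.39e-06, limma), lower in 6 of 6 litters. The array medians lay between 478 and 546 and were lower in the KIS-ko pup of 5 of 6 litters. Over all genes the median difference was -0.04 on the log2 scale, and 69.8% of genes had a negative difference. Markers of neurons, telencephalic factors and forebrain GABA interneurons were above the limit of detection in 10 of 10, 8 of 8 and 13 of 14 measured genes.

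Promoters of 9 of the 10 members were taken from the set of RefSeq promoters (GRCm38.p6) used here, in which Agrp had no entry. The stretch just upstream of the transcription start is shown for the genes whose signal or spread the results turn on. The capitals mark, in Sst and Cartpt, the cyclic AMP response element TGACGTCA, a palindrome searched in the 250 bases upstream. In Npy, Oxt, Avp and Hcrt they mark ATAAA, letters that occur in TATA boxes, searched on the gene's strand in the 40 bases upstream. Gal is shown without capitals, since neither was found in its windows.
Sst, chr16:23890845-23890924, minus strand: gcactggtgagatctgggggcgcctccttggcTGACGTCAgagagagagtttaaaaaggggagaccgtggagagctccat
Cartpt, chr13:99900684-99900813, minus strand: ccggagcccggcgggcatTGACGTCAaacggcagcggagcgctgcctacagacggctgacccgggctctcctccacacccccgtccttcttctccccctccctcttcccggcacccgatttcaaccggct
Npy, chr6:49822630-49822709, plus strand: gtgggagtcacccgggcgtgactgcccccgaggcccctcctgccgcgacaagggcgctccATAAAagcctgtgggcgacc
Oxt, chr2:130576089-130576168, plus strand: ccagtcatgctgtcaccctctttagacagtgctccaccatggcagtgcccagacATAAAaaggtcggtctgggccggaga
Avp, chr2:130582589-130582668, minus strand: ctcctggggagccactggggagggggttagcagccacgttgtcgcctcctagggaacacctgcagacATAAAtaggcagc
Hcrt, chr11:100762932-100763011, minus strand: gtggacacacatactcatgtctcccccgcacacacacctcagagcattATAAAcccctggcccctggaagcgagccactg
Gal, chr19:3414545-3414624, minus strand: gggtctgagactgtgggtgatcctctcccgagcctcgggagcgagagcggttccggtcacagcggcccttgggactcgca

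The cyclic AMP response element was found in 2 of 9 members, Sst and Cartpt, and in 1.62% of all 27025 promoters of the same length. It began 48 bases upstream of the start in Sst and 112 bases upstream in Cartpt. ATAAA was found in 5 of 9 members, Npy, Oxt, Avp, Hcrt and Pmch, and in 5.86% of all promoters. It began 13 bases upstream of the start in Avp, 20 in Npy, 26 in Oxt and Pmch and 32 in Hcrt. The letter before it was c in Npy, Oxt and Avp, and other forms of a TATA box were not searched. The count is therefore no count of TATA boxes. These matches describe the letters of the windows and are no measure of binding.

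Npy and Sst stood clear of the background at birth, and most of the others did not. The background was taken from 5222 intron control probesets, whose median signal was 114 and whose 95th percentile, used as the limit of detection, was 713. This limit is strict, since it lay above the median of every array, and a gene under it may still be expressed. Of the members, only these 2 had a gene mean above that limit, at 3005 and 4239, and all of their probesets were above it. That is 2 of 10, where 40.4% of all genes were above the limit. Since each gene is read by its own probes, the levels of different genes were not ranked.

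Npy (neuropeptide Y, which increases feeding and is an abundant interneuron peptide) had 5 probesets between 1466 and 5475, on chromosome 6 from 49772755 to 49779502. Sst (somatostatin, which inhibits the release of growth hormone and marks a class of interneurons) had 3 probesets between 2350 and 6735, on chromosome 16 from 23889699 to 23890830. These positions are those of the array table, whose build is not given in the sources used here, and are not to be mixed with the promoter positions. The brightest Sst probeset was above 99.6% of the intron controls, and the brightest Npy probeset above 99.5%.

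Hcrt, Oxt and Cartpt had a single probeset above the limit. In Hcrt (the precursor of the orexins, which promote wakefulness) the probeset at chromosome 11, 100623378 to 100623478, had a mean signal of 1393, and the other 3 were between 34.0 and 197. In Oxt (oxytocin) 1 probeset at chromosome 2, 130401965 to 130402046, had a mean of 904, and the other 3 were between 9.44 and 356. In Cartpt (the precursor of the CART peptides, which reduce feeding) 1 probeset at chromosome 13, 100669996 to 100670033, had a mean of 1026, and the next brightest was 643. A gene value of these 3 members thus averages 1 probeset with signal and 3 that were not told apart from intron controls.

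Avp, Pmch, Agrp, Trh and Gal had no probeset above the limit. In Trh, the precursor of thyrotropin-releasing hormone, the brightest probeset was at 706. The brightest probeset of Gal (galanin, an inhibitory peptide of hypothalamic and brainstem neurons) was 501, that of Pmch (melanin-concentrating hormone) 344 and that of Avp (vasopressin) 305. Agrp, an antagonist of melanocortin receptors that increases feeding, had 7 probesets between 13.1 and 148. In all, 11 of the 48 probesets (22.9%) were above the limit, against 41.4% of all main probesets, and 12 of the 48 were below the median of the intron controls, against 18.1%. By this limit the probesets of these 5 genes were not told apart from intron controls, although the brightest of each gene was above the median of those controls.

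**Figure D1:**
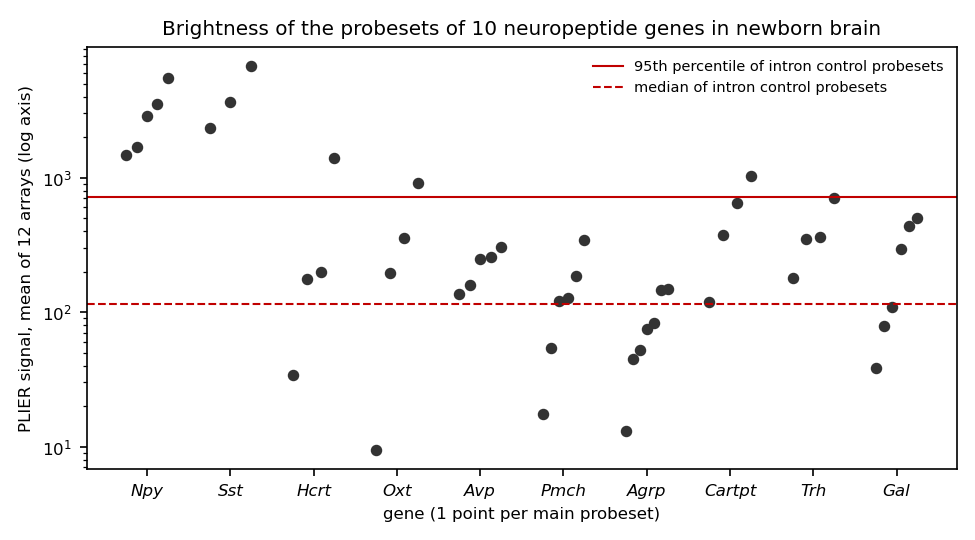
Mean PLIER signal over 12 arrays (log axis) of each main probeset of the 10 neuropeptide genes, 1 point per probeset, with the median (114, dashed) and the 95th percentile (713, solid) of the intron control probesets. All probesets of Npy and Sst, and 1 each of Hcrt, Oxt and Cartpt, are above the solid line.

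Oxt and Avp lie next to each other on chromosome 2 and are read toward each other, Oxt on the plus and Avp on the minus strand. Of the 5 probesets that the table names Avp, 1, at 130402353 to 130402394, lies on the plus strand among the Oxt probesets and in their transcript cluster, and is marked as matching more than 1 place, as is 1 of the 4 on the minus strand. Its mean signal was 249. The Avp values below include it, and only the difference between genotypes is also given without it.

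The question of the genotype comparison was whether loss of KIS changed the level of these precursors in the newborn brain. No member passed the test: 0 of 10 had an adjusted p under 0.05 (limma with the litter as a block), where 0.0114% of all genes did. At an unadjusted p under 0.05 there was 1 of 10, Hcrt, where 5.9% of all genes passed. Over the alternatives that count ran from 0 to 2. It was 0 without litter 1, 2 or 5, with a pseudocount of 64 and with dim probesets left out, among others. Hcrt was lower in KIS-ko, as 4.01% of all genes were at that threshold, and no member was higher, as 1.9% of all genes were. Of the 10 differences 4 were negative, with a median of 0.009, beside the median of -0.04 over all genes. The values of the 2 genotypes overlapped in each of the 10 genes, and were apart in 0.199% of all genes.

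Npy lay within a narrow band. The wildtype values were 11.31, 11.40 and 11.51 (lowest, median and highest of 6 pups), and the KIS-ko values 11.31, 11.37 and 11.46. The groups shared their lower end, and 2 wildtype pups were above every KIS-ko pup. The difference was -0.03 (SE 0.047, 95% interval -0.13 to 0.08, adjusted p = 0.826, limma), a fold of 0.980 with an interval of 0.911 to 1.05, and 3 of 6 litters were lower.

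Sst differed more between pups than between genotypes. The wildtype values were 11.66, 11.96 and 12.10, and the KIS-ko values 11.75, 11.90 and 12.09. The KIS-ko pups all lay inside the wildtype range. The difference was 0.01 (SE 0.089, interval -0.19 to 0.21, adjusted p = 0.965, limma), a fold of 1.01 with an interval of 0.879 to 1.16. Single litters ran both ways, from -0.35 in litter 2 to 0.43 in litter 4.

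Hcrt was 7.84, 7.89 and 7.99 in wildtype and 7.64, 7.77 and 7.91 in KIS-ko pups. Of the 6 KIS-ko pups, 4 were below the lowest wildtype pup. The difference was -0.12 (SE 0.049, interval -0.23 to -0.01, adjusted p = 0.706, limma), a fold of 0.920, and the gene was lower in 5 of 6 litters. It came from the probesets under the limit: the bright probeset had a signal of 1386 ± 141 (SD, n = 6) in wildtype and 1401 ± 198 in KIS-ko pups, and the difference with that probeset alone was 0.01. The dim probeset with the largest difference was lower in 6 of 6 litters, with a signal of 220 ± 20.5 in wildtype and 174 ± 41.7 in KIS-ko pups.

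The 2 hormones of the posterior pituitary both had positive differences, neither of which passed the test. Oxt was 7.40, 7.63 and 7.86 in wildtype and 7.52, 7.74 and 7.86 in KIS-ko pups. The lowest pups of all were wildtype, but the upper ends of both groups coincided. The difference was 0.10 (SE 0.065, interval -0.04 to 0.24, adjusted p = 0.706, limma), higher in 5 of 6 litters. The probeset of Oxt above the limit was at 872 ± 62.2 in wildtype and 936 ± 131 in KIS-ko pups (SD, n = 6).

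Avp was 7.50, 7.77 and 7.91 in wildtype and 7.69, 7.84 and 8.03 in KIS-ko pups. The wildtype pup of litter 3 was the lowest and the KIS-ko pups of litters 5 and 6 were the highest. The difference was 0.10 (SE 0.064, interval -0.04 to 0.24, adjusted p = 0.706, limma), higher in 5 of 6 litters, 0.09 without the probeset in the Oxt cluster and 0.14 with the 3 probesets that match 1 place. That probeset itself differed by 0.16 (SE 0.091). Of the other 4, the 2 brightest, at 305 and, for the other that matches more than 1 place, 256, differed by -0.03 (SE 0.13) and -0.07 (SE 0.068), each lower in 4 of 6 litters, and the 2 dimmest by 0.22 (SE 0.21) and 0.23 (SE 0.21), so that the probesets of Avp did not run one way.

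Of the feeding peptides, Cartpt was 8.53, 8.69 and 8.93 in wildtype and 8.68, 8.76 and 9.06 in KIS-ko pups. Of the 6 KIS-ko pups, 5 lay close together and the pup of litter 5 stood above them. The difference was 0.07 (SE 0.056, interval -0.06 to 0.19, adjusted p = 0.720, limma), higher in 4 of 6 litters, and 0.03 without litter 4. Its bright probeset was at 984 ± 136 in wildtype and 1067 ± 142 in KIS-ko pups. Agrp differed by 0.01 (interval -0.12 to 0.14) and Pmch by 0.02 (interval -0.19 to 0.23), and in Agrp 5 litters were slightly higher in KIS-ko and 1, litter 5, was lower by 0.26.

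Trh differed by -0.03 (interval -0.18 to 0.11), with values between 8.39 and 8.69 in wildtype and between 8.37 and 8.59 in KIS-ko pups. Gal had the widest range of the 10 genes. It was 7.24, 7.67 and 7.88 in wildtype and 7.12, 7.55 and 7.63 in KIS-ko pups. The upper 3 wildtype pups were above every KIS-ko pup, and 2 were below all but 1 of them. The difference was -0.14 (SE 0.12, interval -0.40 to 0.13, adjusted p = 0.721, limma), a fold of 0.910 with an interval of 0.759 to 1.09, and single litters ran from -0.68 in litter 6 to 0.38 in litter 4. It was -0.03 without litter 6 and -0.24 without litter 4.

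**Figure D2:**
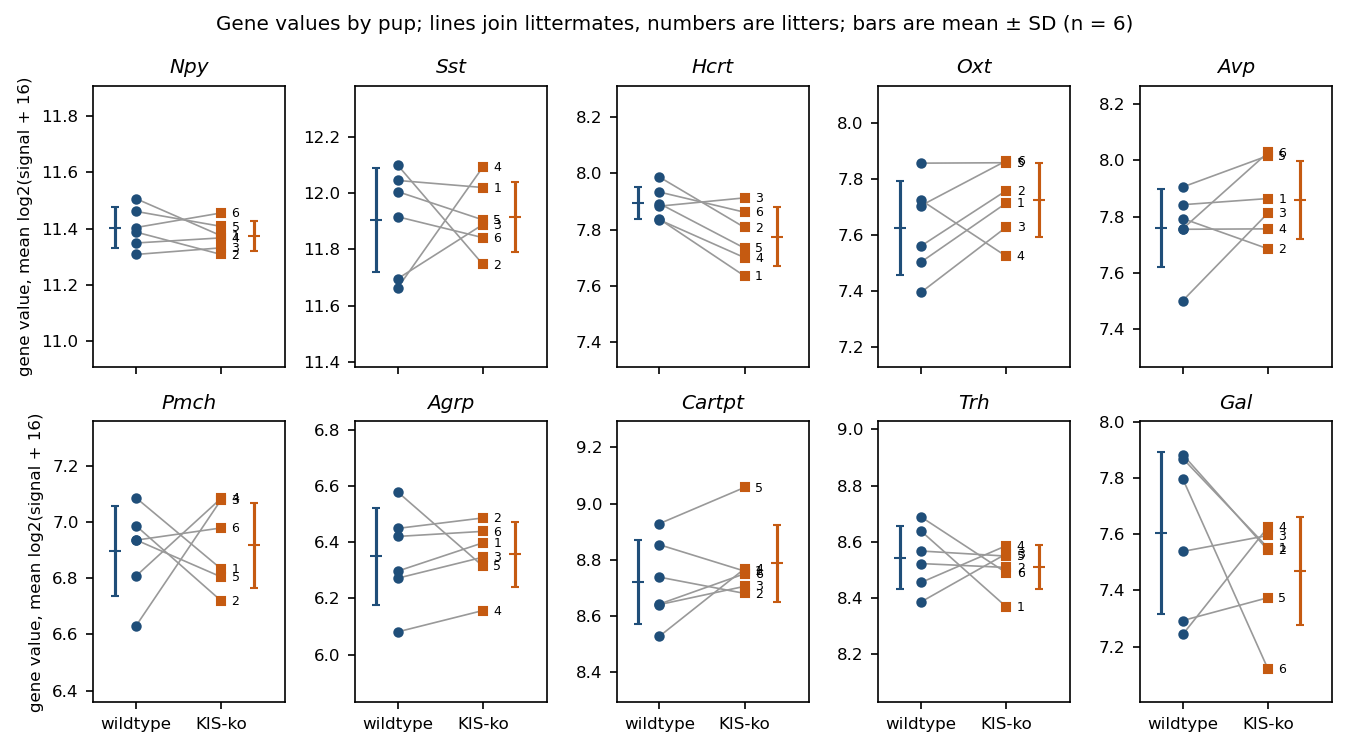
Gene values, the mean over probesets of log2(signal + 16), of the 10 neuropeptide genes by pup, wildtype (circles) and KIS-ko (squares), with lines joining littermates, litter numbers at the right and bars for the mean ± SD (n = 6). Every panel spans 1 log2 unit, and the genotypes overlap in all 10.

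**Figure D3:**
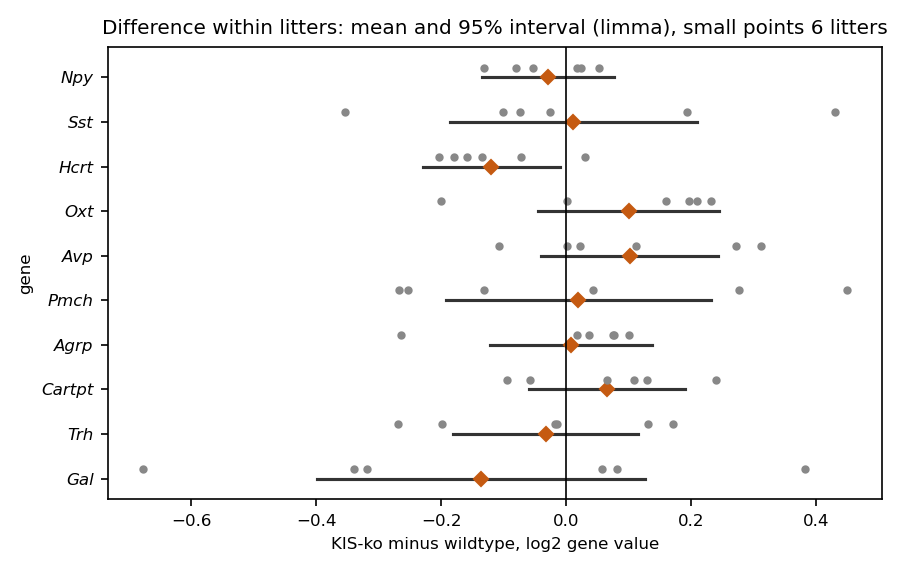
Difference of KIS-ko minus wildtype in log2 gene value, with the mean (diamond), its 95% interval from limma (line) and the 6 litters (small points). The interval of Hcrt, -0.23 to -0.01, is the one that leaves out 0 before adjustment.

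Single probesets gave the same picture. None of the 48 passed the adjusted threshold (limma), where 0.00542% of all probesets did, and 3 had an unadjusted p under 0.05, where 6.2% of all probesets passed. These were 1 probeset each of Pmch, Hcrt and Gal. The Pmch probeset, at chromosome 10, 87554939 to 87555104, was higher in 6 of 6 litters, by 0.29 (SE 0.081, adjusted p = 0.797, limma), while its gene value hardly differed. Each of the 3 was below the limit of detection.

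Spread between pups was described by the SD of the gene value over the 6 pups of a genotype, pooled over both genotypes, and set against genes of like brightness, after all genes had been divided into 10 classes of equal size by their mean signal. In the values as deposited, Sst and Gal had the highest percentiles of the 10 members. The SD of Sst was 0.157, at percentile 96.1 of the genes in its class, whose median was 0.081. That of Gal was 0.245, at percentile 96.2, where the median was 0.119. Npy, in the same class as Sst, had an SD of 0.064 at percentile 22.3. This contrast depends on the mean over probesets: with their median the SD was 0.150 for Npy and 0.159 for Sst.

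The percentiles of Sst and Gal stayed high when the arrays were scaled in another way, and those of Npy, Hcrt, Pmch, Oxt and Cartpt moved more. With arrays centred on their medians, Sst was at 94.7 and Gal at 87.6. Npy was then at 72.5, and at 61.3 after a second quantile normalization. With centring, Oxt was at 94.0 instead of 73.3, and Cartpt at 90.1 instead of 70.0, both above Gal. Hcrt was at 53.6 instead of 17.7, and Pmch at 33.3 instead of 66.9. After the second quantile normalization Hcrt was at 32.4, still under the middle of its class. The low percentile of Npy belongs to the values as deposited. Trh (SD 0.097, percentile 28.6) was below the middle of its class with both scalings, and Avp and Agrp were at 65.1 and 61.7 as deposited.

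**Figure D4:**
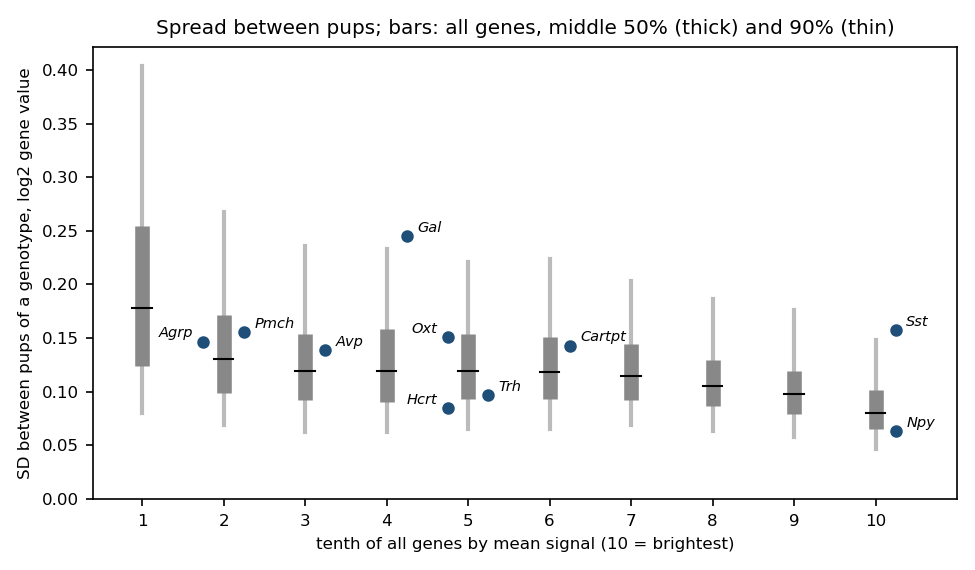
SD between pups of a genotype of the log2 gene value, against the class of mean signal (10 is the brightest). Grey bars give the middle 50% (thick) and 90% (thin) of all genes in each class, black ticks their median, and points the 10 neuropeptide genes, moved sideways for legibility, with Sst at 0.157 and Gal at 0.245 above the bars of their classes.

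The probesets of Sst and Gal moved together from pup to pup. The mean correlation between probesets of a gene over the 12 arrays was 0.71 for Sst, with 3 of 3 pairs positive, and 0.49 for Gal, with 15 of 15 pairs positive. Over the 4689 genes with a like number of probesets the median was 0.14, and Sst was at percentile 96.9 and Gal at 86.4 of these genes. Among those of like brightness the median was higher for bright genes, 0.40 in the class of Sst and Npy and 0.12 in that of Gal. In Hcrt the mean was -0.17, at percentile 2.75. In Npy it was 0.20, under the median of its class, with pairs from -0.64 to 0.62. These correlations are descriptions over arrays that share their scaling and, in pairs, a litter.

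The pups that set these ranges were not the same for each gene. The wildtype pup of litter 3 was the lowest of the 12 for 4 members, Npy, Oxt, Avp and Pmch, and the wildtype pup of litter 4 for 3, Sst, Agrp and Cartpt. The wildtype pup of litter 2 was the highest for Sst, Hcrt and Gal. The KIS-ko pup of litter 6 was the highest for Oxt and Avp and the lowest for Gal. From the lowest to the highest pup the fold was 1.15 for Npy, 1.35 for Sst, 1.44 for Avp and for Cartpt, and 1.70 for Gal.

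Among pairs of members, Npy and Avp were most alike over the 12 arrays (r = 0.85), followed by Sst and Pmch (r = 0.70) and by Oxt and Avp (r = 0.68), of which the last share the transcript cluster of 1 probeset. Oxt and Gal ran most opposite (r = -0.62). These are the extremes of all pairs of members, with no background for such pairs beside them. The probesets of Avp were all under the limit, with a mean correlation of 0.11 among themselves. The wildtype pup of litter 3 was the lowest of the 12 for both Npy and Avp. Of 7094 other genes above the limit, those most like Npy were Cecr6 (r = 0.86), Hist2h3c1 (r = 0.86) and Klf5 (r = 0.84), where the 99th percentile of r was 0.64. Those most like Sst were Dda1, H2-D1 and Npdc1 (r = 0.95 for each of the 3), where the 99th percentile was already 0.87, so that many genes followed the pattern of Sst.

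Littermates did not share their neuropeptide levels to a degree that passed a test. For the litter, 0 of 10 members and 0% of all genes had an adjusted p under 0.05 (limma, F test). At an unadjusted p under 0.05 there were 2 of 10, Cartpt (adjusted p = 0.450, limma) and Agrp (adjusted p = 0.469, limma), where 10.6% of all genes passed. Over the alternatives that count ran from 0, without litter 3 or with dim probesets left out, to 2. The litter means of Cartpt ran from 8.65 in litter 4 to 8.99 in litter 5, and those of Agrp from 6.12 in litter 4 to 6.47 in litter 2. In Sst, Gal, Pmch and Trh the SD within litters, 0.190, 0.268, 0.208 and 0.124, was larger than the SD between pups of a genotype, a comparison that was not tested.

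Genes of tissue at the edges of the brain also varied between pups. Gh, growth hormone of the anterior pituitary, was 12.15 in the wildtype pup of litter 1 and 9.06 in the KIS-ko pup of that litter, and between 7.61 and 8.04 in the other 10. Cga, the common subunit of the pituitary glycoprotein hormones, was 9.78 in the same wildtype pup and between 5.97 and 6.78 in the others, and Pomc, which the pituitary also makes, was 7.97 there and between 6.88 and 7.21 in the others. Of the 15 genes of the pituitary list, 1, Gh, was above the limit on average, an average raised by the wildtype pup of litter 1. At the other end of the brain, Hoxb5, a factor of the hindbrain and spinal cord, ran from 7.52 in the KIS-ko pup of litter 6 to 10.05 in that of litter 4, and the 15 Hox genes had a median percentile of spread of 94.8.

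The pituitary score rested on Gh, and so set the wildtype pup of litter 1, and to a lesser degree its littermate, against the other 10 arrays. On that score 0 of 10 members had an adjusted p under 0.05 (limma), where 0.0114% of all genes did. These were Cga and Gh, and since Gh is itself the score, its call carries no information. At an unadjusted p under 0.05 there were 0 of 10 members, where 3.4% of all genes passed. The score thus compared hardly more than 1 pup with the rest and bears little on the members. In that pup Npy (11.51) and Pmch (7.09) were the highest of the 12, Gal (7.87) was the second highest, and Oxt (7.50) and Avp (7.84) were inside the range of the other wildtype pups. Without litter 1, the difference between genotypes was 0.08 for Oxt, 0.12 for Avp, -0.10 for Gal, -0.008 for Npy and 0.07 for Pmch, and it changed sign in Trh (0.01) and Agrp (-0.01).

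No member passed a test against hypothalamic factors, few of which could be read. Of 19 measured hypothalamic transcription factors, 4 were above the limit, Otp, Arnt2, Pou3f2 and Lhx9, and all 4 are also expressed elsewhere in the brain. Their mean lay between 10.33 and 10.48 in wildtype and between 10.29 and 10.53 in KIS-ko pups. With this mean as the score, 0 of 10 members and 0% of all genes had an adjusted p under 0.05 (limma). At an unadjusted p under 0.05 there was 1 of 10, Sst, with a slope of 1.21 (SE 0.53, adjusted p = 0.254, limma), where 18.4% of all genes passed, a count that ran from 0, with arrays centred on their medians among others, over 2, with the litter as a block, to 3, without litter 3.

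Other lists also varied between pups. Over 7 genes that respond to glucocorticoids, the mean was between 9.94 and 10.26 in wildtype and between 9.89 and 10.22 in KIS-ko pups. Among wildtype pups this mean was lowest in litter 4, at 9.9434, nearly tied with litter 3, at 9.9495. Litter 4 also had the lowest wildtype values of Sst and Gal. The mean was highest in litter 5, where Gal was second lowest. Among KIS-ko pups it was lowest in litter 6, where Gal was lowest, while Sst was lowest in litter 2. The mean of 4 Hox genes above the limit ran from 8.54 to 8.97 in wildtype and from 8.35 to 9.04 in KIS-ko pups. That of 13 genes of forebrain GABA interneurons ran from 10.26 to 10.45 and from 10.25 to 10.38. The part of these values in the spread of the members was not tested.

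**Figure D5:**
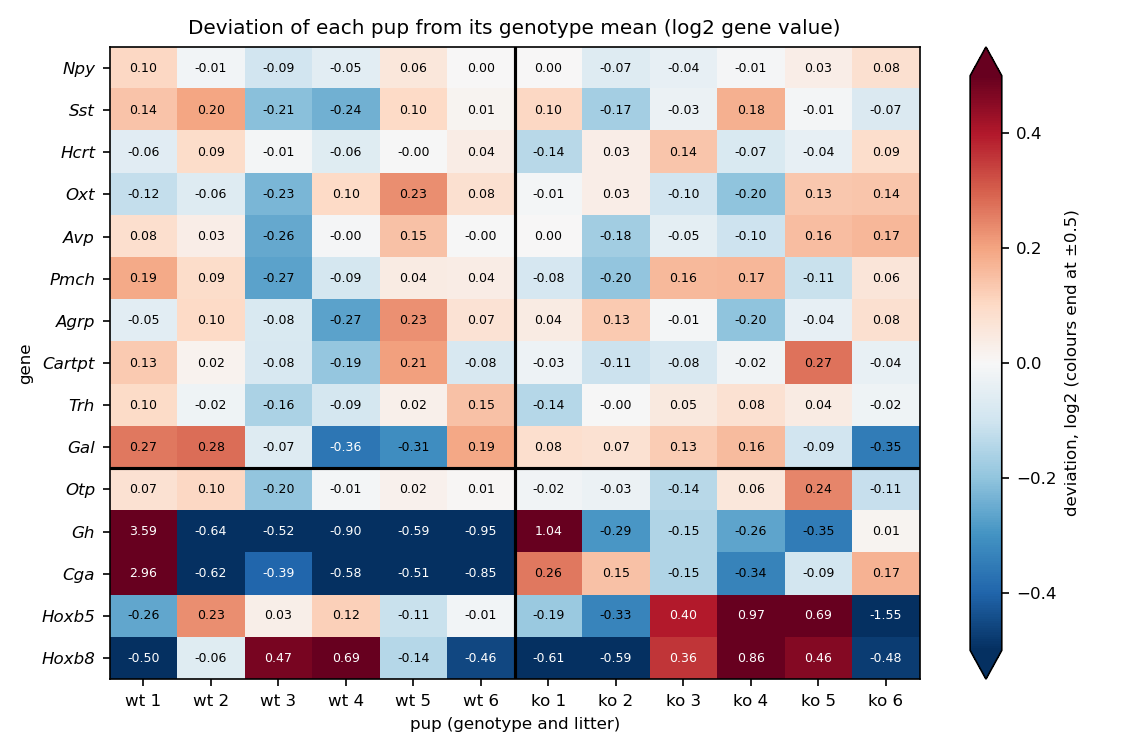
Deviation of each pup from the mean of its genotype in log2 gene value, for the 10 neuropeptide genes and, under the line, for Otp, Gh, Cga, Hoxb5 and Hoxb8, with columns for the 6 wildtype and 6 KIS-ko pups by litter. Colours end at 0.5 in either direction, and no neuropeptide gene lies outside that range, while many values of Gh, Cga, Hoxb5 and Hoxb8 do. For Gh and Cga the wildtype pup of litter 1 raises the wildtype mean, so that most other wildtype pups lie more than 0.5 below it.

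Of 24 receptor genes of these peptides listed, 20 were measured and 4 (20.0%) were above the limit, where 40.4% of all genes were: Npy1r (a receptor of neuropeptide Y), Sstr1 and Sstr4 (receptors of somatostatin) and Mc4r (the melanocortin receptor that AgRP blocks). None of the 20 passed the adjusted threshold for genotype (limma), where 0.0114% of all genes did, and the median difference was -0.03, with 14 of 20 negative, beside -0.04 and 69.8% over all genes. The 3 of lowest p were Npy1r, Ppyr1 (a receptor of the pancreatic polypeptide family) and Trhr (the receptor of thyrotropin-releasing hormone), and the former 2 of the 20 had an unadjusted p under 0.05, where 5.9% of all genes did. Npy1r was 10.11 ± 0.17 in wildtype and 9.95 ± 0.14 in KIS-ko pups (SD, n = 6), a difference of -0.16 (SE 0.059, adjusted p = 0.706, limma), lower in 6 of 6 litters. Ppyr1, far below the limit, differed by 0.19 (SE 0.086) and Trhr by -0.15 (SE 0.080), with an adjusted p of 0.706 for each (limma).

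Of 37 other neuropeptide precursors listed, 34 were measured and 4 (11.8%) were above the limit, where 40.4% of all genes were: Tac1 (substance P), Cck (cholecystokinin), Penk (enkephalins) and Grp (gastrin-releasing peptide). None of the 34 passed the adjusted threshold (limma), where 0.0114% of all genes did, and 3 had an unadjusted p under 0.05, where 5.9% of all genes did. Of the 34 differences 21 were negative (69.8% over all genes), with a median of -0.008. Kiss1, the precursor of kisspeptin, was 7.67 ± 0.11 in wildtype and 7.85 ± 0.10 in KIS-ko pups (SD, n = 6), higher in 6 of 6 litters by 0.19 (SE 0.053, adjusted p = 0.706, limma), at a mean signal of 229, under the limit. Tac1 was 10.23 ± 0.18 in wildtype and 10.03 ± 0.11 in KIS-ko pups, a difference of -0.20 (SE 0.078, adjusted p = 0.706, limma), lower in 5 of 6 litters. Ucn2, of the urocortin family, differed by 0.18 (adjusted p = 0.706, limma), with 1 litter lower.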

How the data were processed

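Total RNA of 12 newborn brains, 6 wildtype and 6 KIS-ko, was measured on 1 array each. The authors ran the Affymetrix Expression Console with quantile normalization at the exon level and PLIER, and the deposited intensity is the PLIER signal of each probeset on a linear scale. The authors' steps equalize the arrays only in part, as the array medians show, and values were therefore also computed with other array scalings. The genome build of the table is not given in the sources used here.

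All main probesets of a symbol were averaged as log2(signal + 16) to a gene value. The filter of the methods (relative standard deviation above 0.4 in either genotype) was used only as an alternative, since it selects on the spread described here. The two-sided test was that of limma 3.58.1 (R 4.3.3) with litter blocked, and p-values were adjusted over 17550 genes by Benjamini-Hochberg, with a threshold of 0.05. Litter was tested in the same model, and scores of hypothalamic factors and of the pituitary with the genotype as a covariate. Spread was not tested. Steps were tested on simulated data. Tables were handled with pandas 2.3.3 and numpy 2.4.6 (Python 3.11.15), and figures were made in matplotlib 3.10.9. The members and lists were chosen with earlier results of these data known.

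The pairing comes from the labels, which give each pair a litter. The correlation between littermates' deviations from the genotype means was 0.26, -0.05, 0.12, -0.10, 0.40 and -0.09 in litters 1 to 6. The genes named are all members, Uhmk1, the 3 receptors and 3 other precursors of lowest unadjusted p, and those of either list above the limit. The rest are the 3 genes most like each member above the limit, and markers a result turns on. Gh, Cga, Pomc and the Hox genes were picked from the lists after their values were seen. The number of arrays and the signal over background limit the precision. The alternatives were a fit without the block, the methods' t-test (paired, which the methods state for Q-PCR and not for arrays), other pseudocounts, probeset filters and array scalings, probeset medians, robust moderation with a trend, and each litter left out in turn. A fit of Avp without its probeset in the Oxt cluster was chosen after seeing the data.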

Additional observations from a re-analysis of the deposited data

Results flagged for a closer look

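Of 20 groups of 6 pups, 1 for each member and genotype, 2 held a value far from the others by Dixon's criterion, which chance gives in about 1 of 20. The Avp value of the wildtype pup of litter 3 was 7.50, with the next at 7.75, and the same pup was the lowest of the 12 for Npy, Oxt and Pmch. The Cartpt value of the KIS-ko pup of litter 5 was 9.06, with the next at 8.77, and the wildtype littermate was the highest of its group at 8.93. Without litter 5 the SD of Cartpt was 0.091 instead of 0.143. The Avp difference was 0.06 without litter 3.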

How the results depend on the processing

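No member passed the adjusted threshold in any alternative run, for genotype, litter or either score, and no receptor, other precursor or member probeset in any run for genotype. Without the replicate block, and by the methods' t-test, which the study used for Q-PCR and not for its arrays, the count of members called for genotype was 0, with 1 at an unadjusted p under 0.05 in each, and over the alternatives that count ran from 0 to 2. With the block, the members at an unadjusted p under 0.05 for the hypothalamic score were 2 instead of 1, and no adjusted call of a member changed. Over all genes, the calls for genotype ran from 0, by that t-test of Q-PCR, to 5, with dim probesets left out or without litter 1. The calls for litter were 253 with dim probesets left out, 111 with trend and robust and 29 with a pseudocount of 64, and 0 in the others. The calls for the pituitary score were 3 over all genes of its list, and 0 without litter 1 or without the 2 arrays farthest from the median. The sign of some differences changed, most of them near 0. With a pseudocount of 64, Agrp was -0.00221, and Hcrt, at -0.12 over all its probesets, was 0.0109 with dim probesets left out. With arrays centred on their medians the difference of each member was higher: Npy was 0.0272 and Trh 0.0229, and, with the sign kept, Oxt and Avp were 0.16, Cartpt 0.12, Pmch 0.08, Sst 0.07, Agrp 0.06, Hcrt -0.06 and Gal -0.08, and quantile-normalized again Trh was 0.0189. With the filter at 0.4 Pmch was -0.00875, and with the median over probesets Pmch was -0.0875 and Trh 0.0082, and, with the sign kept, Npy was -0.13, Hcrt -0.20, Oxt 0.07, Avp 0.05, Sst 0.08, Cartpt 0.11, Agrp 0.05 and Gal -0.09. With a pseudocount of 1 Oxt was 0.23. With each litter left out in turn, the difference ran from -0.0116 to 0.0614 for Agrp, from -0.0664 to 0.0770 for Pmch, from -0.0721 to 0.0847 for Sst and from -0.0738 to 0.0144 for Trh, and without a change of sign from -0.24 to -0.03 for Gal, from 0.03 to 0.10 for Cartpt, from 0.06 to 0.14 for Avp, from 0.07 to 0.16 for Oxt, from -0.15 to -0.10 for Hcrt and from -0.04 to -0.008 for Npy. The SD of Npy was 0.150 and that of Hcrt 0.144 with the median over probesets, and that of Hcrt 0.168 with dim probesets left out. With pseudocounts of 1 and 64 the SD of Agrp was 0.272 and 0.0783 and that of Pmch 0.238 and 0.0961, and with a pseudocount of 1 that of Oxt was 0.333. The cause was not tested.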
